A study of Rattus norvegicus with 21 samples.

Results

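The genes followed here make, bind or limit the proteases of blood clotting and clot removal. They are 9 rat genes looked up by symbol: Plau, Plaur, Plat, F3, Thbd, Procr, Tfpi, Thbs1 and Vwf. Of the 9, 8 had a row among the 17085 gene symbols of the deposited tables, all 8 had enough counts to be tested among 11742 genes, and Thbs1 was not analysed here. Bulk RNA sequencing measured them in the infarct zone of Sprague Dawley rat hearts, with 3 libraries in each of 7 groups. In MI1h-23h-F and MI1h_R the left anterior descending coronary artery was tied for 1 h and then reopened, in MI6h-18h-F and MI6h_R it was tied for 6 h and then reopened, and in MI24h-F and MI24h it stayed tied for 24 h. Sham hearts were the operated controls. Tissue of the groups without F was taken 24 h after the occlusion, and the F titles give 23 h of reperfusion after 1 h and 18 h after 6 h. The series' design text names a pretreatment with fenofibrate, a drug that activates the fatty acid receptor PPARα. The labels do not spell out what F stands for, and no Sham group carries it. They also do not say that the 3 libraries of a group are separate animals, so p-values measure the spread between these libraries only.

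Clotting starts when tissue factor, the product of F3, meets clotting factors of the blood and sets off the chain that makes thrombin and fibrin. Tissue factor pathway inhibitor (Tfpi) blocks that first step, and thrombomodulin (Thbd) with the endothelial protein C receptor (Procr) turns thrombin into an activator of the anticoagulant protein C. Fibrin is removed by plasmin, which urokinase (Plau, working with its receptor Plaur on cell surfaces) and tissue plasminogen activator (Plat, released by vessel walls) cut from plasminogen. Von Willebrand factor (Vwf), stored in endothelial cells and platelets, tethers platelets to injured vessels. In an infarct these genes are carried by endothelium, by the muscle and by leukocytes that enter the dead tissue.

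Total counts ran from 12208041 to 18393795 per library. Levels are given as CPM, counts scaled to a common total per library, with library sizes set by TMM, a factor taken from the bulk of genes. TMM factors were 0.535 to 0.677 in Sham and 0.996 to 1.17 in the 18 injured libraries, and mitochondrial transcripts took 33.5% to 38.5% of Sham counts, against 11.3% to 20.2% in the injured libraries. Comparisons with Sham depend on this scaling: the all-gene median log2 fold change was 0.80 to 0.92 when library sizes were left unscaled and 0.72 to 0.99 on log2(TPM + 1), where the authors' TPM also divide by transcript length. Of 11 listed cardiomyocyte markers 10 had a row, and none of these was at 0 in a group. Their summed level was 1982 to 14585 CPM in the injured libraries, against 54094 to 108505 CPM in Sham. In bulk tissue fewer cells of a type and less RNA per cell cannot be told apart.

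The bases before the gene start are shown for Plau, Plaur and Procr, since these are the genes that were higher in injured tissue than in Sham. Each line gives 250 bases upstream of the RefSeq gene start in the GRCr8 assembly, 5′ to 3′ on the gene's strand. The windows are chr15:3511988-3512237 on the minus strand for Plau, chr1:89181113-89181362 on the plus strand for Plaur and chr3:164714477-164714726 on the plus strand for Procr. Capitals mark matches, on either strand, to the AP-1 motif TGANTCA and the GC box GGGCGG.
Plau: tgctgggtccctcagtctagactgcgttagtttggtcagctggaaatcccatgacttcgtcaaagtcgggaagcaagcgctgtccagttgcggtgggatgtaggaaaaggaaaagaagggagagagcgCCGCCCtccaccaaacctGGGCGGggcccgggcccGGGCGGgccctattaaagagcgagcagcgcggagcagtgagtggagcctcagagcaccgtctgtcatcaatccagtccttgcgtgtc
Plaur: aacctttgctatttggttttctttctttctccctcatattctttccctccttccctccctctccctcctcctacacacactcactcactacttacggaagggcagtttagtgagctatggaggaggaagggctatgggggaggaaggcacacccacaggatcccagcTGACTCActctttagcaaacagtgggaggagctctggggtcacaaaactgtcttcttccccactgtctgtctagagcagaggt
Procr: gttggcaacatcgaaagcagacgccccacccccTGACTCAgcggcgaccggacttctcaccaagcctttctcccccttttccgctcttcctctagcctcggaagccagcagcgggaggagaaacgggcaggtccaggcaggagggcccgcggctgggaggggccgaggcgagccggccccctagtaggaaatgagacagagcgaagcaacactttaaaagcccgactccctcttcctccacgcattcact

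Plaur and Procr each held 1 AP-1 match, at -83 to -77 from the start of Plaur and at -217 to -211 from that of Procr. The Plau window held none and had 3 GC boxes, at -122 to -117 (on the minus strand of the gene), -104 to -99 and -87 to -82. Among 33469 rat promoter windows of the same length, 6.34% held an AP-1 match and 30.5% a GC box. The short KLF motif CACCC lay at -101 to -97 in Plaur and -224 to -220 in Procr, and 49.2% of all windows held one. No match to the hypoxia response core ACGTG (16.6% of windows), the TATA box TATAAA (12.9%), the EGR motif GCGNGGGCG (4.29%) or the NF-kappaB motif (6.33%) lay in the 3 windows. These are matches of letters only, and no match overlapped another. Windows were at hand for 5 of the 9 genes.

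The comparison of each injured group with Sham asks how the tissue's clotting and fibrinolysis genes stand about a day after the artery was closed. Plau and Procr rose in all 6 injured groups, and Plaur rose in 5. Plat and Tfpi fell in the 4 reperfused groups under TMM, although on log2(TPM + 1) the differences had the opposite sign in all 4. F3 fell in MI1h-23h-F, MI6h-18h-F, MI24h-F and MI24h under TMM. Vwf passed the edgeR test with TMM in none of the 6, while limma-voom called it higher in MI1h-23h-F, MI6h-18h-F and MI6h_R. The test was edgeR's quasi-likelihood test on all 21 libraries, and a gene was called at a Benjamini-Hochberg adjusted p under 0.05 over all 11742 genes.

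Against Sham, 2 of 8 genes rose and 3 fell in MI1h-23h-F, where 48.2% of all genes were called, 23.9% up and 24.2% down. In MI1h_R 3 rose and 2 fell, where 49.5% of all genes were called, 25.4% up and 24.1% down. In MI6h-18h-F 3 rose and 3 fell (57.2% of all genes, 28.6% up and 28.5% down), and in MI6h_R 4 rose and 2 fell (57.2%, 29.3% up and 28.0% down). In MI24h-F 3 rose and 1 fell (60.8%, 30.7% up and 30.1% down), and so did 3 and 1 in MI24h (54.3%, 28.0% up and 26.2% down). With so many genes called in these comparisons, the shares are near the background and say nothing about the 8 genes as a set. Their median log2 fold change lay between -0.36 (MI1h_R) and 0.57 (MI6h_R), while the median of all genes lay between 0.03 and 0.07. The 6 comparisons use the same 3 Sham libraries, so they are not separate evidence.

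**Figure D1:**
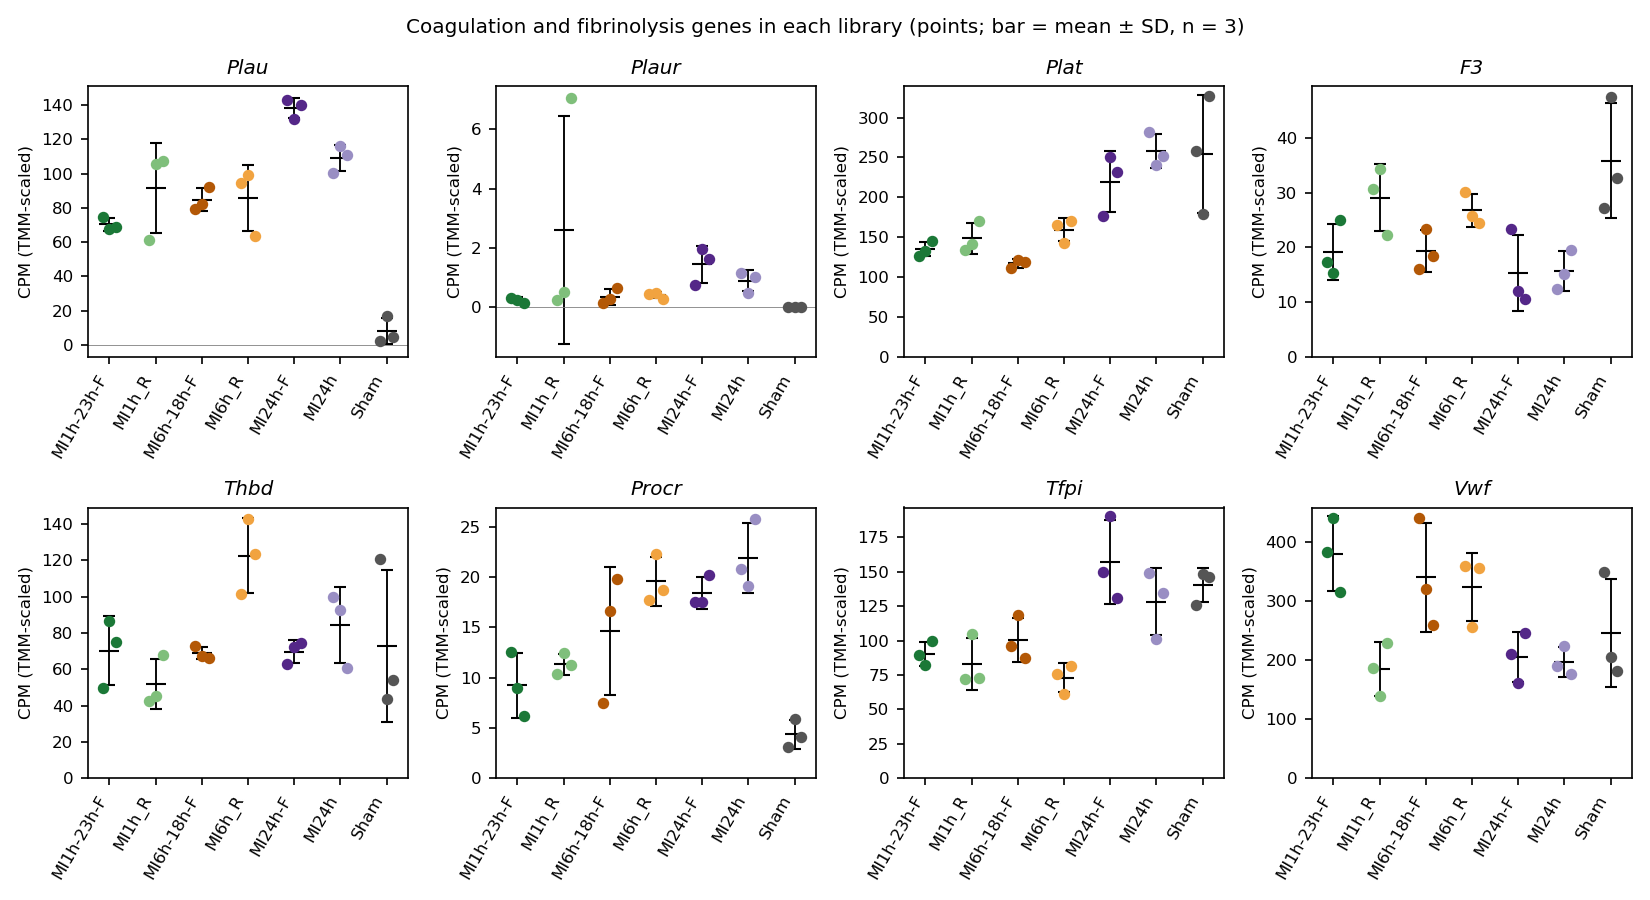
Level of each of the 8 genes in every library, in CPM with TMM-scaled library sizes, with 1 panel per gene, 1 point per library, and a bar for the mean ± SD of a group (n = 3). Plau lies between 61.2 and 143 CPM in the injured libraries and at 16.7 CPM or less in Sham, while Plat is highest in the MI24h, Sham and MI24h-F groups.

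Plau, the urokinase gene, rose in all 6 injured groups. It had 74.9, 67.7 and 68.6 CPM in MI1h-23h-F, 61.2, 106 and 107 CPM in MI1h_R, 79.5, 82.3 and 92.3 CPM in MI6h-18h-F and 94.4, 99.4 and 63.6 CPM in MI6h_R. In the unreperfused infarcts it had 143, 132 and 140.1 CPM in MI24h-F and 101, 116 and 111 CPM in MI24h, against 2.55, 16.7 and 4.61 CPM in Sham. Every injured library lay above every Sham library, and Sham replicate 31 was the highest of the Sham group. The order of the group means was MI24h-F, MI24h, MI1h_R, MI6h_R, MI6h-18h-F, MI1h-23h-F and Sham, and the ranges of MI24h, MI1h_R, MI6h_R and MI6h-18h-F overlapped from one to the next.

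The log2 fold change of Plau in MI24h was 3.76 ± 0.44 (SE), a 13.6-fold difference (edgeR adjusted p = 1.95e-06). In MI24h-F it was 4.11 ± 0.44 (17.2-fold, edgeR adjusted p = 5.27e-07). In the reperfused groups it lay between 3.13 ± 0.43 in MI1h-23h-F (8.77-fold) and 3.51 ± 0.43 in MI1h_R (11.4-fold), with edgeR adjusted p-values of 3.87e-06 to 1.87e-05. Sham replicate 31, which held the highest Plau of its group, also had 2928 CPM summed over 10 monocyte and macrophage markers and 167 CPM over 10 neutrophil markers, against 889 and 944 CPM and 29.2 and 56.6 CPM in the other 2 Sham libraries. Without it the log2 fold changes of Plau were 4.95 in MI24h, 5.33 in MI24h-F, 4.71 in MI1h_R, 4.63 in MI6h_R, 4.34 in MI1h-23h-F and 4.61 in MI6h-18h-F. In the injured libraries the monocyte and macrophage sum was 3117 to 8202 CPM (10 of 12 listed genes with a row). The neutrophil sum was 240.0 to 2803 CPM (10 of 10), and no marker of either list was at 0 in any group. Lyz2, the highest of the monocyte and macrophage markers, averaged 4907 CPM in MI24h and 909 CPM in Sham. Of these 10 markers, 4 to 6 were called higher than in Sham and 2 or 3 lower in each injured group. Of the 10 neutrophil markers 7 or 8 were called higher, and 1 was called lower in MI6h-18h-F alone. The part of these cells in the Plau difference was not tested.

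Plaur, the cell-surface receptor that holds urokinase, had few counts in these tables, so they are given. It had 5, 4 and 2 counts in MI1h-23h-F, 3, 7 and 111 counts in MI1h_R, 2, 4 and 10 counts in MI6h-18h-F and 9, 8 and 5 counts in MI6h_R. It had 10, 31 and 22 counts in MI24h-F and 16, 8 and 15 counts in MI24h, against 0 counts in each Sham library. MI1h_R replicate 41, with 111 counts, held most of the counts of its group. The ratio of counts to TPM made the Plaur row 0.0181 times as long as the median gene, with 0.145% of tested genes shorter. Its TPM thus cannot be set beside those of the other genes, and its few counts do not show that the transcript was scarce.

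Because Sham had no count, folds were set against 3 counts in a library (0.295 CPM) as the lowest level that could be told from none, which covers counting error only. Plaur was at least 4.90-fold higher in MI24h-F than this limit (edgeR adjusted p = 0.00273), at least 3.03-fold higher in MI24h (edgeR adjusted p = 0.00884) and at least 8.79-fold higher in MI1h_R (edgeR adjusted p = 0.00112), or 1.26-fold without MI1h_R replicate 41. In MI6h_R it was at least 1.35-fold higher (edgeR adjusted p = 0.0369), a call that was lost without MI6h_R replicate 11 or 21 or any 1 Sham library. In MI6h-18h-F it was at least 1.20-fold higher (edgeR adjusted p = 0.0466), and 0.694 of the limit without replicate 4, where the call was lost, as it was without replicate 2 or any 1 Sham library, with limma-voom and with the 2 groups fitted alone. In MI1h-23h-F Plaur was below the limit and was not called (edgeR adjusted p = 0.097), while DESeq2, library size alone and both TPM scales gave a call.

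Plat, the tissue plasminogen activator gene, had lower values in reperfused than in ligated infarcts, and its standing against Sham depended on the scaling. It had 127, 133 and 145 CPM in MI1h-23h-F, 133, 141 and 171 CPM in MI1h_R, 111, 122 and 119 CPM in MI6h-18h-F and 165, 143 and 169.7 CPM in MI6h_R. It had 177, 250.1 and 232 CPM in MI24h-F and 282, 240.2 and 252 CPM in MI24h, against 258, 178 and 327 CPM in Sham. Every library of the 4 reperfused groups was below every Sham library, while MI24h-F and MI24h overlapped with Sham. The order of the means was MI24h, Sham, MI24h-F, MI6h_R, MI1h_R, MI1h-23h-F and MI6h-18h-F, with gaps between the ranges of MI24h-F and MI6h_R and of MI1h-23h-F and MI6h-18h-F.

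Against Sham the log2 fold change of Plat was -0.92 ± 0.18 in MI1h-23h-F (edgeR adjusted p = 0.000578) and -1.12 ± 0.18 in MI6h-18h-F (edgeR adjusted p = 5.98e-05). It was -0.78 ± 0.18 in MI1h_R (edgeR adjusted p = 0.00188) and -0.68 ± 0.18 in MI6h_R (edgeR adjusted p = 0.00424). On log2(TPM + 1) the values were 0.22 in MI1h-23h-F, 0.15 in MI1h_R, 0.01 in MI6h-18h-F and 0.55 in MI6h_R, so the direction against Sham rests on the scaling. Relative to the median of all genes on that scale they were -0.66, -0.57, -0.85 and -0.43 in the same order. Of these 4 TPM values, that in MI6h_R was called. Under TMM MI24h-F (-0.21, edgeR adjusted p = 0.323) was not called and MI24h had a log2 fold change of 0.02, but Plat was called higher on log2(TPM + 1) in both (0.83 in MI24h-F and 1.06 in MI24h) and with library size alone (0.57 and 0.78). Relative to the median of all genes the TPM values were 0.01 in MI24h-F and 0.22 in MI24h.

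Among the anticoagulant genes, Procr, the protein C receptor, rose in every injured group. It had 12.6, 8.97 and 6.19 CPM in MI1h-23h-F, 10.3, 12.4 and 11.3 CPM in MI1h_R, 7.50, 16.6 and 19.8 CPM in MI6h-18h-F and 17.7, 22.3 and 18.7 CPM in MI6h_R. It had 17.5, 17.5 and 20.3 CPM in MI24h-F and 20.8, 19.1 and 25.8 CPM in MI24h, against 3.12, 5.92 and 4.06 CPM in Sham. All injured libraries were above all Sham libraries. From MI24h, the highest mean, down through MI6h_R, MI24h-F, MI6h-18h-F, MI1h_R and MI1h-23h-F, each group overlapped with the next.

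The log2 fold change of Procr was 2.32 ± 0.32 in MI24h (edgeR adjusted p = 1.23e-05), 2.16 ± 0.32 in MI6h_R (4.47-fold, edgeR adjusted p = 2.12e-05) and 2.07 ± 0.32 in MI24h-F (4.21-fold, edgeR adjusted p = 2.63e-05). It was 1.74 ± 0.32 in MI6h-18h-F (3.35-fold), 1.37 ± 0.32 in MI1h_R (2.59-fold) and 1.08 ± 0.32 in MI1h-23h-F (2.12-fold), with edgeR adjusted p-values of 0.000178, 0.00173 and 0.00985. The call in MI1h-23h-F was lost without its replicate 1 (0.79) or without Sham replicate 11 (0.89), with limma-voom and with the 2 groups fitted alone. The other 5 calls of Procr against Sham held whichever library was left out.

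Thbd, the thrombomodulin gene, stood out in MI6h_R. It had 49.4, 86.5 and 75.0 CPM in MI1h-23h-F, 42.5, 45.3 and 67.8 CPM in MI1h_R, 73.0, 67.6 and 66.4 CPM in MI6h-18h-F and 101, 143 and 124 CPM in MI6h_R. It had 62.8, 72.3 and 74.3 CPM in MI24h-F and 99.8, 92.6 and 60.5 CPM in MI24h, against 121, 43.9 and 54.0 CPM in Sham. MI6h_R lay above all other groups except for Sham replicate 11, and the other 6 group means, from MI24h down to MI1h_R, overlapped from one to the next.

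Thbd rose in MI6h_R by a log2 fold change of 0.75 ± 0.31 (edgeR adjusted p = 0.0429) and was called in no other injured group under TMM. The call in MI6h_R was lost without MI6h_R replicate 21 (0.63) or 31 (0.75) or Sham replicate 31 (0.53) or 41 (0.61), and with median-of-ratios factors or the 2 groups fitted alone. Sham replicate 11 also had the highest sum of 8 endothelial markers in the Sham group, 1783 CPM against 978 and 1176 CPM in the other 2, and the injured libraries had 906 to 1493 CPM, with no such marker at 0 in any group. Without that library the log2 fold change was 1.34 in MI6h_R and 0.78 in MI24h, where Thbd was then called. On log2(TPM + 1) Thbd was also called higher in MI1h-23h-F (1.12), MI6h-18h-F (1.11) and MI24h-F (1.07), where the TMM values were -0.05, -0.08 and -0.06. It was called in MI24h too (1.29), where the TMM value was 0.21 and library size alone gave a call at 0.92. Relative to the median of all genes these 4 TPM values were 0.23, 0.25, 0.24 and 0.46 in the same order.

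Tfpi, the inhibitor of the tissue factor step, was lower in reperfused tissue under TMM. It had 89.2, 81.9 and 99.6 CPM in MI1h-23h-F, 72.0, 104 and 72.5 CPM in MI1h_R, 96.0, 118 and 87.0 CPM in MI6h-18h-F and 75.7, 61.3 and 81.6 CPM in MI6h_R. It had 149.7, 190.2 and 131 CPM in MI24h-F and 149, 101 and 135 CPM in MI24h, against 126, 149 and 146 CPM in Sham. All libraries of the reperfused groups were below all Sham libraries, and MI24h-F and MI24h overlapped with Sham. Ordered by mean, from MI24h-F through Sham, MI24h, MI6h-18h-F, MI1h-23h-F and MI1h_R to MI6h_R, each group overlapped with the next.

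Against Sham the log2 fold change of Tfpi was -0.95 ± 0.19 in MI6h_R (edgeR adjusted p = 0.000428), -0.76 ± 0.19 in MI1h_R (edgeR adjusted p = 0.00319), -0.64 ± 0.19 in MI1h-23h-F (edgeR adjusted p = 0.0108) and -0.48 ± 0.19 in MI6h-18h-F (edgeR adjusted p = 0.0387). On log2(TPM + 1) these were 0.61, 0.53, 0.76 and 0.94 and were called higher, so no direction against Sham can be given without naming the scaling. Relative to the median of all genes on TPM they were -0.38, -0.19, -0.13 and 0.08. The call in MI6h-18h-F was lost without its replicate 1 (-0.45) or 4 (-0.39) or Sham replicate 31 (-0.40) or 41 (-0.44), and with the 2 groups fitted alone. MI24h-F (0.16, edgeR adjusted p = 0.483) and MI24h (-0.13, edgeR adjusted p = 0.589) were not called under TMM, but Tfpi was called higher on log2(TPM + 1) in both (1.51 in MI24h-F and 1.12 in MI24h) and with library size alone (0.91 and 0.60). Relative to the median of all genes the TPM values were 0.69 in MI24h-F and 0.29 in MI24h.

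F3, the tissue factor gene that starts clotting, had low values in the unreperfused infarcts. It had 17.3, 15.2 and 25.0 CPM in MI1h-23h-F, 30.8, 34.3 and 22.3 CPM in MI1h_R, 16.1, 23.5 and 18.5 CPM in MI6h-18h-F and 30.1, 25.8 and 24.4 CPM in MI6h_R. It had 23.4, 12.1 and 10.5 CPM in MI24h-F and 12.5, 15.1 and 19.6 CPM in MI24h, against 27.3, 47.6 and 32.7 CPM in Sham. MI24h-F, MI24h, MI1h-23h-F and MI6h-18h-F lay wholly below Sham, and MI1h_R and MI6h_R overlapped with it. In order of the means, Sham, MI1h_R and MI6h_R overlapped from one to the next, then came a gap, and MI6h-18h-F, MI1h-23h-F, MI24h and MI24h-F overlapped from one to the next.

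The log2 fold change of F3 against Sham was -1.23 ± 0.30 in MI24h-F (edgeR adjusted p = 0.00164) and -1.19 ± 0.30 in MI24h (edgeR adjusted p = 0.00248). On log2(TPM + 1) these were -0.23 and -0.16 and were not called. Relative to the median of all genes on that scale they were -1.05 and -0.99. Under TMM F3 was -0.91 ± 0.29 in MI1h-23h-F (edgeR adjusted p = 0.017) and -0.89 ± 0.29 in MI6h-18h-F (edgeR adjusted p = 0.0153). TPM gave 0.19 and 0.20 in these 2 groups, or -0.70 and -0.66 relative to the median of all genes. Without Sham replicate 31 both calls were lost (-0.62 in MI1h-23h-F and -0.60 in MI6h-18h-F), as they were without MI1h-23h-F replicate 1 (-0.84) or 4 (-0.77) and without MI6h-18h-F replicate 1 (-0.77). MI1h_R (-0.30, edgeR adjusted p = 0.411) and MI6h_R (-0.42, edgeR adjusted p = 0.226) were not called under TMM. On TPM MI6h_R was called higher, at 0.76, but it was -0.23 relative to the median of all genes.

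Vwf, the platelet-tethering factor of endothelium, varied widely within groups. It had 383, 441 and 315 CPM in MI1h-23h-F, 186, 138 and 229 CPM in MI1h_R, 441, 319 and 258 CPM in MI6h-18h-F and 358, 256 and 355 CPM in MI6h_R. It had 209.8, 160.4 and 245 CPM in MI24h-F and 189, 224 and 175 CPM in MI24h, against 349, 205 and 181 CPM in Sham. Each injured group overlapped with Sham, whose replicate 11 was again the highest of its group. Its log2 fold change against Sham lay between -0.41 in MI1h_R and 0.63 ± 0.26 in MI1h-23h-F (edgeR adjusted p = 0.0547), and the gene was called in none of the 6 comparisons by edgeR with TMM. With library size alone edgeR called Vwf higher in MI1h-23h-F (1.41), MI6h-18h-F (1.23) and MI6h_R (1.22). On log2(TPM + 1) it was called higher in the same 3 groups (1.70, 1.52 and 1.56) and in MI24h-F (0.77), and relative to the median of all genes these values were 0.82, 0.66, 0.58 and -0.05. Without Sham replicate 11 Vwf was called higher in MI1h-23h-F (0.98), MI6h-18h-F (0.82) and MI6h_R (0.75), and without MI1h-23h-F replicate 5 it was called in that group too (0.77).

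**Figure D2:**
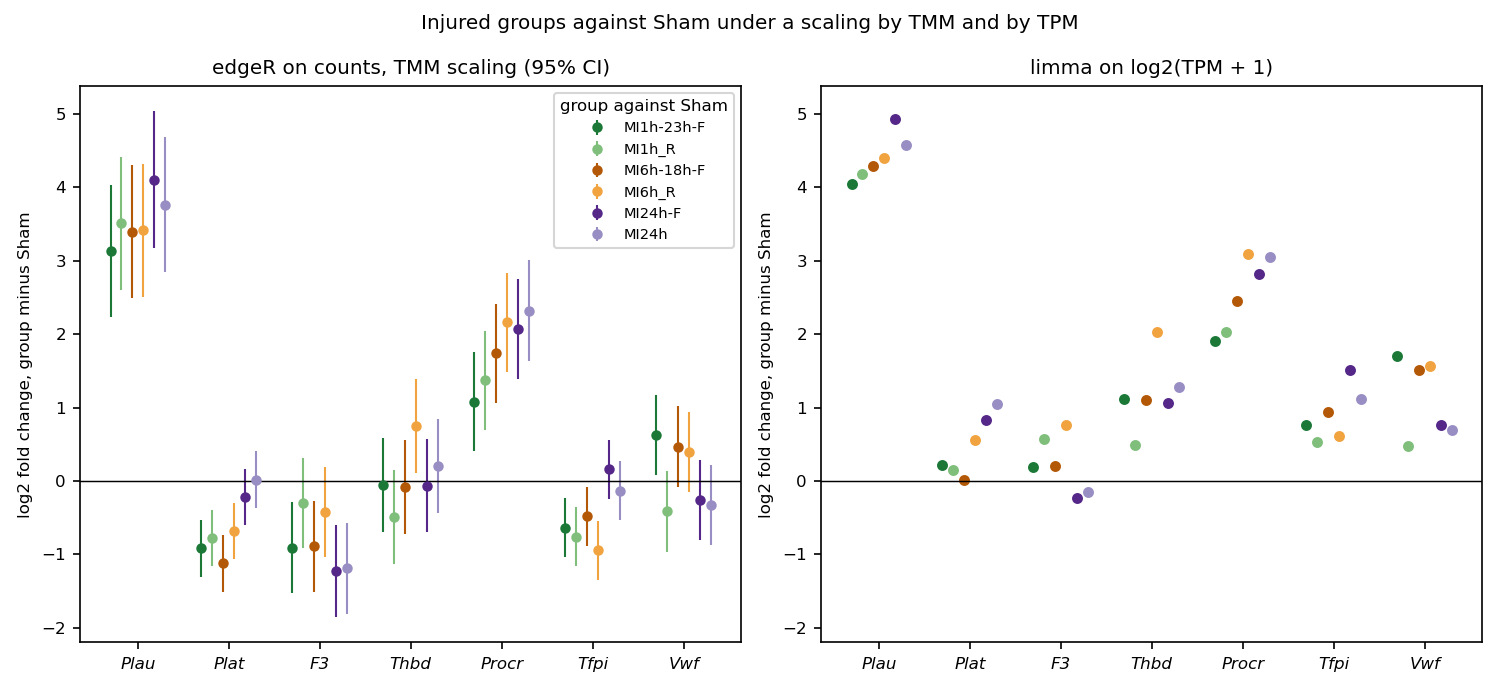
Log2 fold change of 7 genes in each injured group against Sham. The left panel is from edgeR with TMM scaling, with 95% confidence intervals. The right panel is from limma on log2(TPM + 1), without intervals. Plaur is left out because Sham had no count of it. Plau and Procr lie above 0 in both panels. Plat and Tfpi in the reperfused groups lie below 0 under TMM and above it on TPM.

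Levels can be set between genes only per length, for which the authors' TPM serve. In MI24h Plat was the highest of the genes at 118 ± 15.3 TPM (SD, n = 3), followed by Plau at 76.0 ± 11.7 TPM, Tfpi at 71.9 ± 11.1 TPM, Thbd at 59.8 ± 19.8 TPM and Procr at 37.6 ± 1.47 TPM (SD, n = 3 each). Vwf had 24.4 ± 5.80 TPM and F3 10.6 ± 1.69 TPM in MI24h. In Sham Plat was also highest, at 57.1 ± 13.8 TPM, followed by Tfpi at 32.5 ± 5.58 TPM and Thbd at 26.8 ± 19.7 TPM, while Procr had 3.77 ± 1.34 TPM and Plau 2.79 ± 2.82 TPM. With Plaur set aside, the receptor of the protein C pathway and urokinase were thus the lowest of these genes in Sham. Plau was second to Plat in MI24h, within the spread of Tfpi.

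The next comparisons set a reopened artery against one that stayed closed, and they do not involve Sham. Plat was lower in reperfused than in ligated tissue in all 4 of them, and it fell past the test in 3. In MI1h-23h-F against MI24h-F Procr and Tfpi fell as well, and Vwf rose. The signs of Plat, Procr, Tfpi and Vwf in that comparison, and that of Plat in the other 3, held under every alternative scaling and with each library left out. The comparisons with F and those without F share no libraries, but each reperfused pair shares its ligated group.

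Plat had 133, 141 and 171 CPM in MI1h_R and 165, 143 and 169.7 CPM in MI6h_R, against 282, 240.2 and 252 CPM in MI24h. It had 127, 133 and 145 CPM in MI1h-23h-F and 111, 122 and 119 CPM in MI6h-18h-F, against 177, 250.1 and 232 CPM in MI24h-F. No reperfused library reached the lowest library of its ligated group. The log2 fold change was -0.80 ± 0.18 for MI1h_R (edgeR adjusted p = 0.0193), -0.70 ± 0.18 for MI1h-23h-F (edgeR adjusted p = 0.0169) and -0.90 ± 0.18 for MI6h-18h-F (edgeR adjusted p = 0.029). For MI6h_R it was -0.70 ± 0.18 and not called (edgeR adjusted p = 0.121).

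In MI1h_R against MI24h 1 of 8 genes fell and none rose, where 4.32% of all genes were called, 1.51% up and 2.81% down. In MI6h-18h-F against MI24h-F 1 of 8 fell and none rose, where 0.485% of all genes were called, 0.145% up and 0.341% down. In MI6h_R against MI24h edgeR called 0 of 8, where 0.502% of all genes were called (0.111% up and 0.392% down), while 4 had an unadjusted p under 0.05, DESeq2 called 2 (Plat and Tfpi) and limma-voom 0. Of all 11742 genes 996 passed unadjusted there, 196 by DESeq2 and 55 by limma-voom. The Plat calls were fragile to single libraries. That in MI1h_R was lost without MI1h_R replicate 11 (-0.73) or 31 (-0.76) or MI24h replicate 11 (-0.73), and with the 2 groups fitted alone. That in MI1h-23h-F was lost without its replicate 4 (-0.69) or MI24h-F replicate 2 (-0.60) or 4 (-0.66), and that in MI6h-18h-F without its replicate 1 (-0.87), 2 (-0.93) or 4 (-0.91) or MI24h-F replicate 2 (-0.80) or 4 (-0.86), with the 2 groups fitted alone and on log2(TPM + 0.1).

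In MI1h-23h-F against MI24h-F 1 of 8 genes rose and 3 fell, where 15.6% of all genes were called, 8.87% up and 6.74% down. The median log2 fold change was -0.75 over the 8 genes and 0.03 over all genes. Tfpi had 89.2, 81.9 and 99.6 CPM in MI1h-23h-F, against 149.7, 190.2 and 131 CPM in MI24h-F, and fell by 0.80 ± 0.19 on the log2 scale (edgeR adjusted p = 0.0117). Procr had 12.6, 8.97 and 6.19 CPM in MI1h-23h-F, against 17.5, 17.5 and 20.3 CPM in MI24h-F, and fell by 0.99 ± 0.30 on the log2 scale (edgeR adjusted p = 0.0347). Vwf had 383, 441 and 315 CPM in MI1h-23h-F, against 209.8, 160.4 and 245 CPM in MI24h-F, and rose by 0.89 ± 0.26 on the log2 scale (edgeR adjusted p = 0.0292). The ranges of the groups were apart for 6 of the 8 genes: these 3, Plat, and Plau and Plaur, which edgeR did not call. The share of all genes with ranges apart was not counted.

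The Tfpi call was lost without MI1h-23h-F replicate 4 (-0.73) or MI24h-F replicate 2 (-0.64). The Vwf call was lost without MI1h-23h-F replicate 1 (0.88) or 4 (0.77) or MI24h-F replicate 1 (0.91) or 2 (0.74), and on log2(TPM + 0.1). The Procr call was lost without MI1h-23h-F replicate 4 (-0.97) or 5 (-0.78) or any 1 of the MI24h-F libraries, where it was -1.03, -1.03 and -0.92, and with library size alone. Cell markers differed between these groups as well. The 10 cardiomyocyte markers summed to 9101 to 14585 CPM in MI1h-23h-F, against 1982 to 4039 CPM in MI24h-F, with 8 of 10 called higher. The 9 fibroblast markers summed to 8021 to 10762 CPM, against 3912 to 4730 CPM, with 6 of 9 called higher. The 10 neutrophil markers summed to 240.0 to 577 CPM, against 1149 to 1303 CPM, with 5 of 10 called lower. The 8 endothelial markers summed to 1217 to 1364 CPM, against 1092 to 1323 CPM, and none was called. The 6 smooth muscle and pericyte markers summed to 503 to 615 CPM, against 350 to 476 CPM, with 3 of 6 called higher. The 10 monocyte and macrophage markers summed to 3258 to 4742 CPM, against 5160 to 6541 CPM, although 4 of 10 were called higher and none lower. The 5 platelet and megakaryocyte markers summed to 8.95 to 14.1 CPM, against 9.85 to 28.2 CPM, with 1 of 4 tested, Itga2b, called lower. No marker of these lists was at 0 in either group, and the part of these cells in the 4 calls was not tested.

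In the pair without F, Tfpi, Procr and Vwf did not pass edgeR's test. In MI1h_R against MI24h the log2 fold change was -0.63 for Tfpi (edgeR adjusted p = 0.0687), -0.95 for Procr (edgeR adjusted p = 0.0791) and -0.09 for Vwf (edgeR adjusted p = 0.875). For that pair DESeq2 called 4 genes, Plat, Procr, Tfpi and F3, and limma-voom 4, Plat, Procr, Thbd and F3. Of all 11742 genes DESeq2 called 1073 there and limma-voom 1509. Without MI24h replicate 21 Tfpi was called in MI1h_R (-0.77) and in MI6h_R (-0.96), where it was -0.82 with all libraries (edgeR adjusted p = 0.0808). F3 was 0.89 in MI1h_R (edgeR adjusted p = 0.0904) and was called without MI1h_R replicate 41 (1.05). Plau was -0.25 in MI1h_R, -0.35 in MI6h_R, -0.97 in MI1h-23h-F (edgeR adjusted p = 0.0919) and -0.71 in MI6h-18h-F, and edgeR called none of these, while limma-voom called Plau lower in MI1h-23h-F (-0.97), as did edgeR with the 2 groups fitted alone (-0.99). Plaur was 1.55 in MI1h_R and -1.23 without MI1h_R replicate 41, so its sign there rested on that library. In MI1h-23h-F against MI24h-F Plaur was -2.55 ± 1.01 (edgeR adjusted p = 0.0941), with 5, 4 and 2 counts against 10, 31 and 22, and DESeq2, limma-voom and edgeR with the 2 groups fitted alone called it lower.

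**Figure D3:**
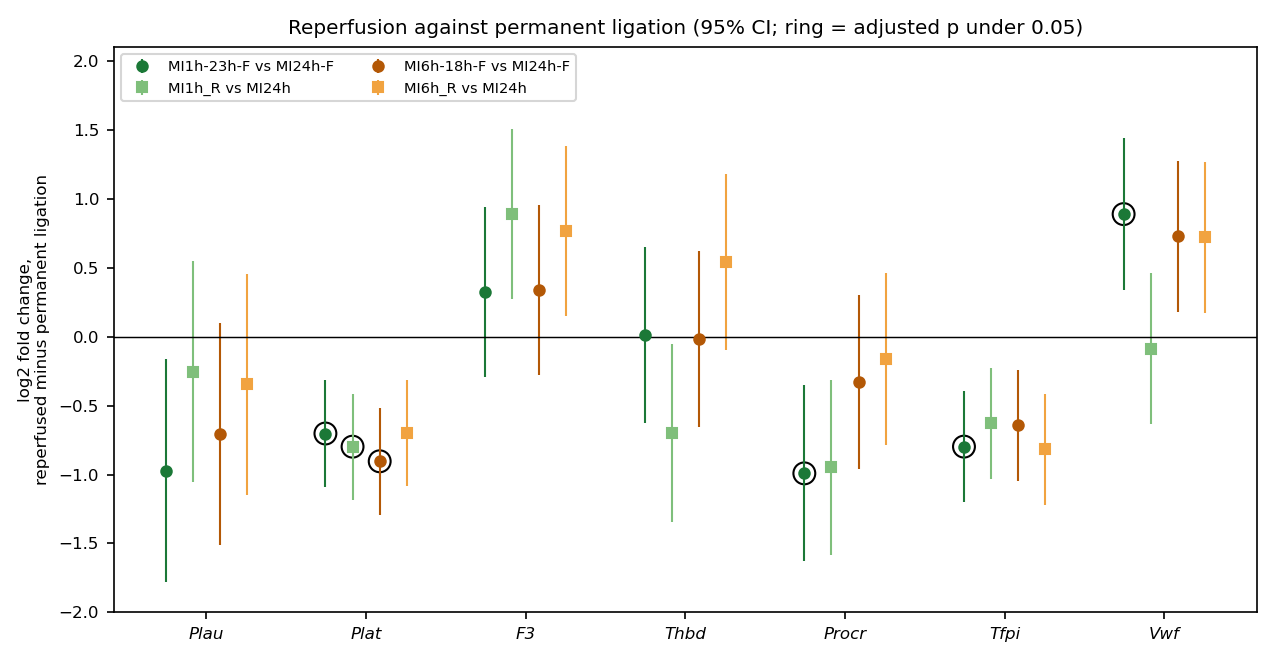
Log2 fold change of the 8 genes except Plaur in reperfused against permanently ligated infarcts, in 4 comparisons. Bars are 95% confidence intervals from edgeR, and a ring marks an adjusted p under 0.05. Plat lies between -0.90 and -0.70 in all 4 comparisons, and the 4 rings of MI1h-23h-F against MI24h-F are Plat, Procr, Tfpi and Vwf.

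Early reperfusion was compared with late reperfusion. Since the tissue was taken about a day after the occlusion, a longer ischemia came with a shorter reperfusion, and their parts cannot be told apart. Thbd was lower after 1 h than after 6 h of ischemia, with 42.5, 45.3 and 67.8 CPM in MI1h_R, against 101, 143 and 124 CPM in MI6h_R. The ranges were apart, and the log2 fold change was -1.24 ± 0.31 (edgeR adjusted p = 0.0421). It was the 1 gene of 8 called, where 2.41% of all genes were called, 1.26% up and 1.15% down. The call was lost without MI1h_R replicate 11 (-1.12) or 31 (-1.15) or MI6h_R replicate 11 (-1.36), 21 (-1.12) or 31 (-1.23), with library size alone and with the 2 groups fitted alone, though the sign held in each. The 8 endothelial markers summed to 906 to 1233 CPM in MI1h_R, against 1278 to 1493 CPM in MI6h_R, and their part in the Thbd difference was not tested. Vwf was -0.81 (edgeR adjusted p = 0.0947), or -0.997 and called without MI1h_R replicate 41, and Procr was -0.79 (edgeR adjusted p = 0.147). The ranges of both were apart as well. DESeq2 called Thbd and Vwf, and limma-voom Thbd, Procr and Vwf. Of all genes these methods called 923 and 3020.

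With F, MI1h-23h-F against MI6h-18h-F gave no call among the 8 genes or among all genes (0%) in edgeR. At an unadjusted p under 0.05 it gave 1 of 8, limma-voom called 1 (Procr) and DESeq2 called 0, and over all genes the counts were 1597 unadjusted, 1392 by limma-voom and 88 by DESeq2. Thbd overlapped between the groups there, with 49.4 to 86.5 CPM in MI1h-23h-F, against 66.4 to 73.0 CPM in MI6h-18h-F. The difference between the Thbd responses with and without F was 1.27 ± 0.43 on the log2 scale and did not pass edgeR's test (edgeR adjusted p = 0.285). Limma-voom called this difference, as it did for 1271 of all genes.

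The F groups were set against the same injury without F, in 3 comparisons, and edgeR called no clotting or fibrinolysis gene. For MI24h-F against MI24h 0 of 8 were called by edgeR, where 13% of all genes were, with 0 at an unadjusted p under 0.05, 0 by DESeq2 and 1 (Tfpi) by limma-voom. Of all 11742 genes 3419 passed unadjusted, 2064 by DESeq2 and 2916 by limma-voom. For MI1h-23h-F against MI1h_R 0 of 8 were called, where 0.0766% of all genes were, with 2 unadjusted, 2 (Plaur and Vwf) by DESeq2 and 3 (F3, Thbd and Vwf) by limma-voom. The counts over all genes there were 1917 unadjusted, 317 by DESeq2 and 2776 by limma-voom. For MI6h-18h-F against MI6h_R 0 of 8 were called, where 9.62% of all genes were, with 3 unadjusted (Plat, Thbd and Tfpi), 0 by DESeq2 and 1 (Thbd) by limma-voom. The counts over all genes there were 3060 unadjusted, 1737 by DESeq2 and 2007 by limma-voom.

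Vwf had the clearest separation, with 383, 441 and 315 CPM in MI1h-23h-F, against 186, 138 and 229 CPM in MI1h_R. The ranges were apart, and the log2 fold change of 1.04 ± 0.26 did not pass edgeR's test (edgeR adjusted p = 0.1), while DESeq2 (1.06, adjusted p = 0.0112) and limma-voom (1.11, adjusted p = 0.004) called it. Thbd had 73.0, 67.6 and 66.4 CPM in MI6h-18h-F, against 101, 143 and 124 CPM in MI6h_R, with ranges apart and a log2 fold change of -0.83 ± 0.31 (edgeR adjusted p = 0.0905). Plau had 143, 132 and 140.1 CPM in MI24h-F, against 101, 116 and 111 CPM in MI24h, also with ranges apart, and its log2 fold change of 0.34 was not called (edgeR adjusted p = 0.598).

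Whether reperfusion acted differently with F was tested as the difference between the fold changes. For 1 h of ischemia edgeR called 0 of 8 genes and 0% of all genes, with 2 of 8 at an unadjusted p under 0.05, 0 by DESeq2 and 2 (Thbd and Vwf) by limma-voom. Of all 11742 genes 1990 passed unadjusted, 226 by DESeq2 and 2003 by limma-voom. Vwf had the value 0.98 ± 0.37 (edgeR adjusted p = 0.229) and Plat 0.10 ± 0.26 (edgeR adjusted p = 0.879). For 6 h of ischemia edgeR called 0 of 8 and 0% of all genes, with 0 unadjusted, 0 by DESeq2 and 0 by limma-voom. Of all genes 425 passed unadjusted, 1 by DESeq2 and 0 by limma-voom. For the difference between 1 h and 6 h edgeR called 0 of 8, where 0.00852% of all genes were, with 3 unadjusted, 0 by DESeq2 and 2 (Thbd and Vwf) by limma-voom. Of all genes 1551 passed unadjusted, 57 by DESeq2 and 1271 by limma-voom.

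To see which genes had patterns like those of the clotting and fibrinolysis genes, log2 CPM was correlated across the 18 injured libraries with 8098 genes of a mean of at least 10 CPM. These correlations describe libraries that share groups and scaling, and they carry no test. Plat was most like Eno2, a glycolytic enolase (Pearson r = 0.963, Spearman rho = 0.917, n = 18), Vegfa, the vessel growth factor (r = 0.954, rho = 0.922), and Tpi1, a glycolytic isomerase (r = 0.945, rho = 0.942). Eno2 averaged 21.3 CPM in MI1h-23h-F, 28.9 CPM in MI1h_R, 18.3 CPM in MI6h-18h-F and 27.0 CPM in MI6h_R, against 61.4 CPM in MI24h-F and 85.0 CPM in MI24h. Vegfa averaged 68.5, 104, 71.6 and 114 CPM in the same reperfused groups, against 235 CPM in MI24h-F and 395 CPM in MI24h. Both were thus lower in the reperfused groups than in the ligated ones, as Plat was. This follows from their choice by likeness to Plat over these libraries and is no further result. Sham was not part of the correlation. There Eno2 averaged 10.3 CPM, below every injured group, while Vegfa averaged 368 CPM and Plat 254 CPM, near Plat's 258 CPM in MI24h.

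Plau was most like Egr2, an early growth response transcription factor (r = 0.881, rho = 0.882), Clec5a, a receptor of myeloid cells (r = 0.861, rho = 0.87), and Cd276, an immune checkpoint protein (r = 0.852, rho = 0.86). Tfpi was most like Bnip3, a mitochondrial protein of the hypoxia response (r = 0.913, rho = 0.837), Calu (r = 0.911, rho = 0.94) and Pnrc1 (r = 0.91, rho = 0.862). Thbd was most like Tmem201 (r = 0.919, rho = 0.928), Zxdc and Adgrl2, and Procr was most like Nol9 (r = 0.906, rho = 0.889), Tgif1 and Rell1. Vwf was most like Tril (r = 0.865, rho = 0.837), Adgra2 and Neurl1b. F3 had weaker partners, the nearest being Dolpp1 (r = 0.823, rho = 0.746), Snx24 and Cops6, and the low counts of Plaur gave Calr (r = 0.784, rho = 0.845), Cep192 and Slamf8. Among the genes themselves, Plau went with Plat (r = 0.624, rho = 0.653) and against Vwf (r = -0.571, rho = -0.585), and Plat went with Tfpi (r = 0.612, rho = 0.49), all over the same 18 libraries.

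**Figure D4:**
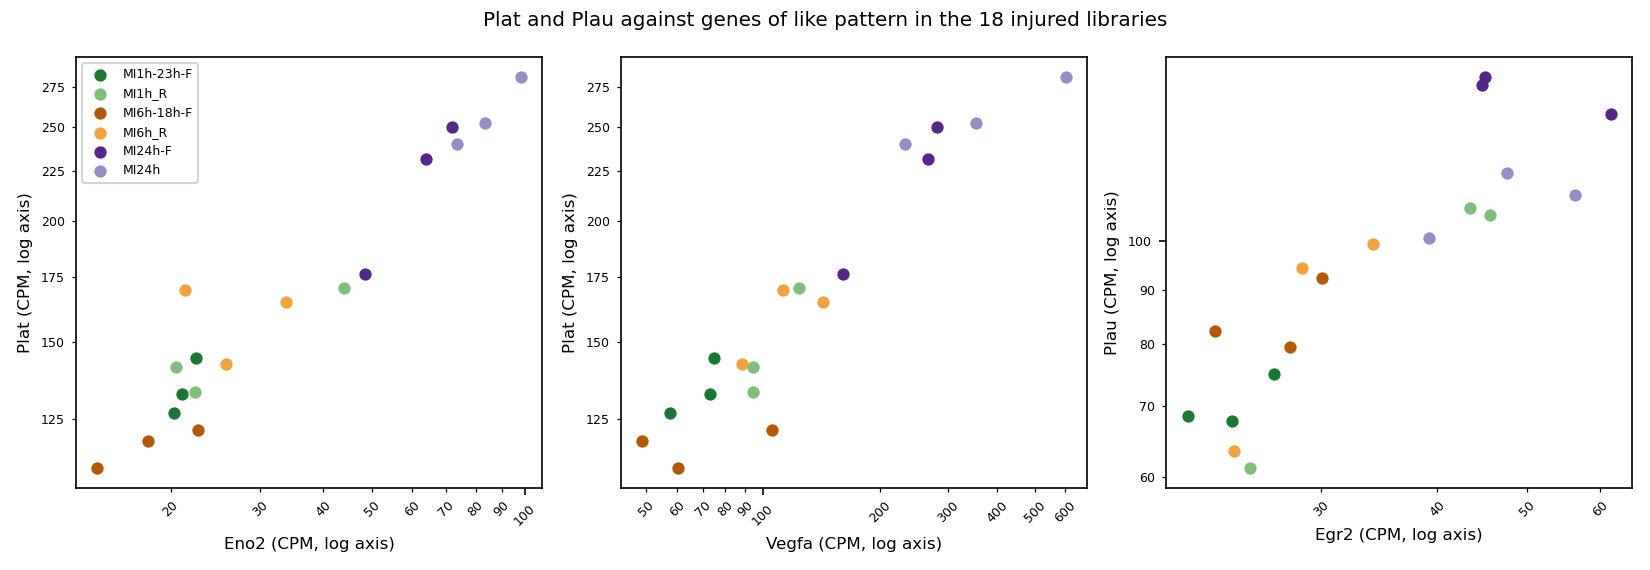
Level of Plat against that of Eno2 and of Vegfa, and of Plau against that of Egr2, in CPM on log axes, with 1 point for each of the 18 injured libraries, marked by group. The libraries of MI24h-F and MI24h lie at the upper right of the Plat panels and the reperfused libraries at the lower left (Pearson r = 0.963 for Eno2 and 0.954 for Vegfa).

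The wider pathway was described with lists of genes that act with these 8, and the counts given leave the 8 out. In MI24h against Sham 54.3% of all genes were called and the median of all genes was 0.07. Of 13 tested activators, receptors and inhibitors of plasminogen, 7 rose and 3 fell, with a median log2 fold change of 1.11. Eno1, a glycolytic enzyme that also binds plasminogen at cell surfaces, rose by 1.63 ± 0.19 and A2m, a broad protease inhibitor, by 4.32 ± 0.62, or 5.58 without Sham replicate 31. Anxa2, a cell-surface protein that binds plasminogen, averaged 1356 CPM in MI24h and 336 CPM in Sham and rose by 2.01 ± 0.33, or 2.73 without Sham replicate 31. Of 9 clotting factor and fibrinogen genes 3 rose and 2 fell (median 0.26). F13a1, the fibrin cross-linking factor carried by macrophages and platelets, rose by 2.06 ± 0.35, and Fgl2, a prothrombin-cleaving membrane protein, by 1.04 ± 0.29. Ggcx, which carboxylates clotting factors, fell by 0.51 ± 0.17, but was 0.34 on log2(TPM + 1).

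Of 5 further genes listed with the anticoagulant ones 3 rose and 1 fell in MI24h against Sham (median 0.65). Gas6, a ligand of TAM receptors related to protein S, averaged 86.9 CPM in MI24h and 657 CPM in Sham, a log2 fold change of -2.92 ± 0.31. Tfpi2, a relative of Tfpi, rose by 3.27 ± 0.45, and Entpd1, which degrades ATP and ADP, by 1.60 ± 0.47, or 2.23 without Sham replicate 11. Of 2 tested protease-activated receptors 1 rose, F2rl2, by 4.32 ± 0.64, or 2.95 without MI24h replicate 11. Of 10 genes of platelets and von Willebrand factor storage and release 3 rose and 0 fell (median 0.57). They were Selp, the P-selectin stored beside von Willebrand factor (4.01 ± 0.59, or 5.57 without Sham replicate 31), Angpt2, another protein of the same endothelial granules (2.28 ± 0.30), and the platelet chemokine gene Pf4 (1.29 ± 0.44).

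Of 5 thrombospondin and thrombospondin receptor genes 2 rose and 0 fell (median 0.99), the integrin gene Itgav by 1.45 ± 0.25 and the scavenger receptor gene Cd36 by 2.71 ± 0.61, or 4.30 without Sham replicate 31. Of 6 KLF and endothelial flow genes, which include regulators of Thbd, 3 rose and 2 fell (median 0.55). Klf10 and Klf6 rose by 1.59 ± 0.22 and 1.54 ± 0.24, and Klf4 fell by 1.06 ± 0.22 on the log2 scale, a call that was lost on TPM and with library size alone. Of 9 AP-1 and EGR factors, the families whose motifs were searched in the promoters, 7 rose and 0 fell (median 2.77). Fosl1 rose by 5.68 ± 0.39, or 6.52 without Sham replicate 31, Junb by 2.77 ± 0.31 and Egr1 by 2.73 ± 0.31. Calls among the genes of the lists are from edgeR with Benjamini-Hochberg adjustment over all genes.

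**Figure D5:**
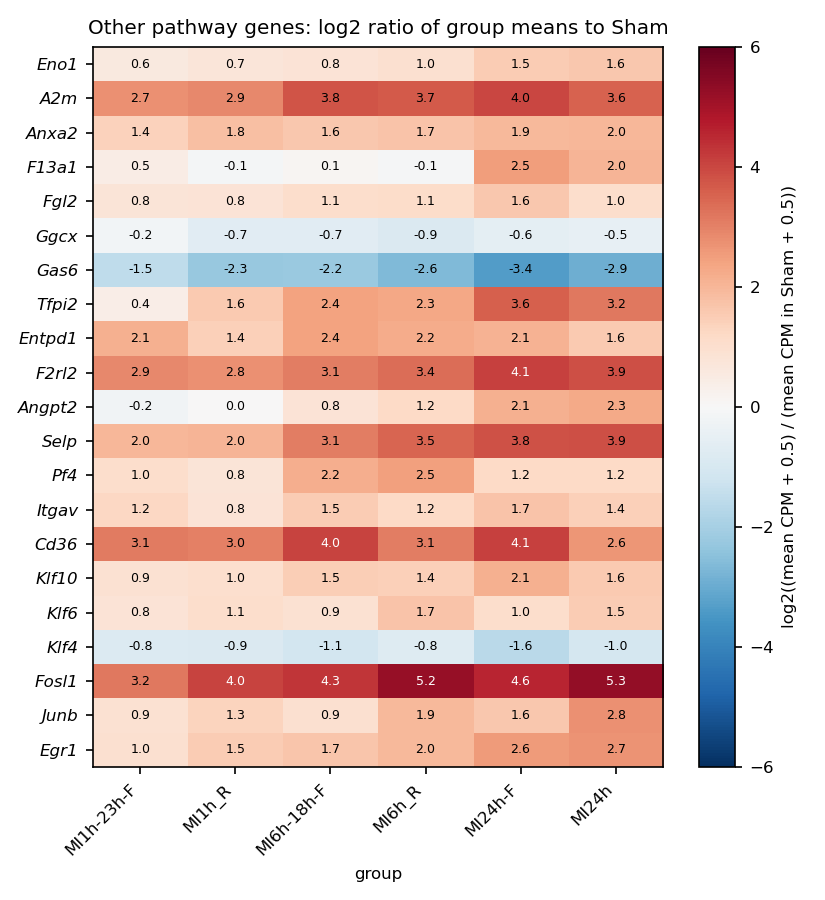
Heatmap of the log2 ratio of the group mean to the Sham mean (CPM, with 0.5 added to each) for 21 genes of the lists in the 6 injured groups. They are up to 3 genes per list, those called in MI24h against Sham with the smallest p. Fosl1 is far above Sham in all groups, Gas6 is below it in all, and F13a1 and Angpt2 are above it in the ligated groups and nearer to it in the reperfused ones.

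In reperfused against ligated infarcts, F13a1 fell in all 4 comparisons. It averaged 87.0 CPM in MI1h-23h-F, 57.6 CPM in MI1h_R, 68.8 CPM in MI6h-18h-F and 59.4 CPM in MI6h_R, against 365 CPM in MI24h-F and 262 CPM in MI24h. Its log2 fold changes were -2.18 ± 0.35 for MI1h_R, -2.14 ± 0.35 for MI6h_R, -2.07 ± 0.35 for MI1h-23h-F and -2.41 ± 0.35 for MI6h-18h-F, with edgeR adjusted p-values of 0.00209 to 0.00969. The call for MI6h_R was lost without MI6h_R replicate 21, and that for MI6h-18h-F without its replicate 1 or MI24h-F replicate 2. Angpt2 fell by 2.24 ± 0.30 in MI1h_R (edgeR adjusted p = 0.00185), by 2.37 ± 0.30 in MI1h-23h-F (edgeR adjusted p = 0.000677) and by 1.32 ± 0.29 in MI6h-18h-F (edgeR adjusted p = 0.0494), the last lost without any of 5 libraries. In MI1h-23h-F, where Vwf rose, Selp fell by 1.86 ± 0.52 on the log2 scale (edgeR adjusted p = 0.0231), and it lost its call without MI1h-23h-F replicate 4 or 5 or MI24h-F replicate 2 or 4.

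Of the 13 plasminogen genes besides Plau, Plaur and Plat, edgeR called 1 higher and 1 lower in MI1h_R (4.32% of all genes called, 1.51% up and 2.81% down), 0 higher and 1 lower in MI1h-23h-F (15.6%, 8.87% up and 6.74% down), and none in MI6h_R (0.502%) or MI6h-18h-F (0.485%). Eno1 was the gene that fell, by 0.91 ± 0.19 in MI1h_R and 0.96 ± 0.19 in MI1h-23h-F. Of the 5 further genes listed with the anticoagulant ones 2 rose and 1 fell in MI1h-23h-F, beside the same 8.87% and 6.74%. Tfpi2 averaged 8.57 CPM in MI1h-23h-F, against 81.8 CPM in MI24h-F, and fell by 3.25 ± 0.44 on the log2 scale (edgeR adjusted p = 0.000677), while Gas6 averaged 227 CPM in MI1h-23h-F, against 63.8 CPM in MI24h-F, and rose by 1.83 ± 0.30 (edgeR adjusted p = 0.00177). Of the 9 AP-1 and EGR factors 3 fell in MI1h_R, among them Egr1 by 1.17 ± 0.29, and 3 in MI1h-23h-F, among them Egr1 by 1.62 ± 0.30, beside 2.81% and 6.74% of all genes called lower.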

How the data were processed

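Per the labels' protocols, RNA from infarct-zone tissue was isolated with RNeasy columns, made into NEBNext Ultra libraries and sequenced on a HiSeq. The submitters' processing notes name STAR 2.7.3a, RSEM 1.3.1 and the genome rn7. The sources used here do not give the annotation or the strand setting. The authors deposited a table of counts, which are whole numbers, and a table of TPM. Group tags leave out F and shorten MI1h_R, so sample titles set the groups.

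The tests ran in edgeR 4.0.16 under R 4.3.3 (filterByExpr, TMM, quasi-likelihood, 1 term per group, 21 libraries in 1 model), in 15 comparisons and 3 differences between fold changes, with p-values adjusted over 11742 genes. An exact permutation test of 3 libraries against 3 cannot go below p = 0.1, so no single value was tested outside the model. Alternatives were DESeq2 1.42.0, limma 3.58.1 (voom with quality weights, and a trend on log2(TPM + 1) or log2(TPM + 0.1)), unscaled library sizes, median-of-ratios factors, all genes unfiltered, mitochondrial genes removed, separate fits for the groups compared, a replicate block and each library left out. Keeping genes with identical counts once was added after seeing the data, and none of the 8 genes shares its counts with another symbol. The procedure was tested on simulated data. The genes, lists and tests were chosen with earlier results of these data known. By rule, all 9 genes, up to 3 called genes of each list with the smallest p and the 3 most alike genes were named. Promoters are from RefSeq (GRCr8), and other coordinates were not used here. Figures used matplotlib 3.10.9 under Python 3.11.15.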

Additional observations from a re-analysis of the deposited data

How the results depend on the processing

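Over 2520 repeats of the 8 genes' tests, 2324 kept the direction and side of the threshold of the reported value or, in 129 of these, changed sign with neither value called. Of the others, 68 gained a call, 86 lost one and 42 turned the direction with the reported or the repeated value called, and the cause was not tested.

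All reversals were against Sham and came with library size alone or TPM. With library size alone the log2 fold changes were 0.60 for Tfpi in MI24h, 0.0283 for Plat and 0.0017 for Tfpi in MI1h_R, 0.21 for Plat in MI6h_R, 0.57 for Plat in MI24h-F, 0.17 for Tfpi in MI1h-23h-F, 0.32 for Tfpi in MI6h-18h-F and 0.21 for Ggcx in MI24h. On log2(TPM + 1) and log2(TPM + 0.1) they were, in MI24h, 1.12 and 1.14 for Tfpi, 0.34 and 0.36 for Ggcx and, on the second scale alone, 0.74 for Vwf. In MI1h_R they were 0.15 and 0.15 for Plat and 0.53 and 0.55 for Tfpi. In MI6h_R they were 0.55 and 0.56 for Plat, 0.76 and 0.81 for F3 and 0.61 and 0.63 for Tfpi. In MI24h-F they were 0.83 and 0.84 for Plat, 1.07 and 1.10 for Thbd and 0.77 and 0.81 for Vwf. In MI1h-23h-F they were 0.22 and 0.23 for Plat, 0.19 and 0.20 for F3, 1.12 and 1.15 for Thbd and 0.76 and 0.78 for Tfpi. In MI6h-18h-F they were 0.0139 and 0.0146 for Plat, 0.20 and 0.22 for F3, 1.11 and 1.15 for Thbd and 0.94 and 0.96 for Tfpi.

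With settings other than a left-out library, all genes called ranged from 0 to 1509 for MI1h_R against MI24h (reported: 507). They ranged from 8 to 2776 for MI1h-23h-F against MI1h_R (reported: 9). The number of the 8 genes called moved by over 1.5 times as follows. Against Sham it was 7 in MI24h on log2(TPM + 0.1) (reported: 4), 3 in MI1h_R with library size alone (reported: 5) and 7 in MI24h-F on both TPM scales (reported: 4). For MI1h_R against MI24h (reported: 1) it was 4 with DESeq2, 4 with limma-voom, 0 with only the groups compared and 0 with the replicate block. For MI6h_R against MI24h (reported: 0) DESeq2 gave 2. For MI1h_R against MI6h_R (reported: 1) it was 0 with library size alone, only the groups compared or the replicate block, 2 with DESeq2, 3 with limma-voom, 3 on log2(TPM + 1) and 2 on log2(TPM + 0.1). For MI1h-23h-F against MI24h-F (reported: 4) the replicate block gave 1. For MI6h-18h-F against MI24h-F (reported: 1) it was 2 with limma-voom and 0 on log2(TPM + 0.1), with only the groups compared and with the replicate block. Where 0 were reported, limma-voom gave 1 for MI1h-23h-F against MI6h-18h-F, 1 for MI24h-F against MI24h, 3 for MI1h-23h-F against MI1h_R (DESeq2: 2), 1 for MI6h-18h-F against MI6h_R (only the groups compared: 1) and 2 each for the differences between fold changes of MI1h-23h-F and MI1h_R, taken against ligation and against 6 h of ischemia.

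With each library left out, the number called ranged from 4 to 5 in MI24h against Sham, 5 to 5 in MI1h_R, 4 to 6 in MI6h_R, 4 to 4 in MI24h-F, 3 to 6 in MI1h-23h-F and 3 to 6 in MI6h-18h-F. It ranged from 0 to 2 for MI1h_R against MI24h, 0 to 1 for MI6h_R against MI24h, 0 to 2 for MI1h_R against MI6h_R, 0 to 3 for MI1h-23h-F against MI24h-F and 0 to 1 for MI6h-18h-F against MI24h-F. In the other comparisons it stayed at 0.

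Replicate numbers did not pair the libraries. Of 9 libraries with F 0 correlated best with their own number, and of 12 without F 1 did, with correlations of -0.332 to 0.148 over 7 pairs and -0.538 to 0.32 over 13 pairs. No paired analysis was possible between groups with and without F because they share fewer than 2 numbers.

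With 3 libraries a group and 0 to 111 counts of Plaur per library, edgeR called no difference in Plaur between injured groups, while DESeq2 called it lower in MI1h-23h-F than in MI24h-F and in MI1h_R, where 1 library held most counts, and limma-voom and edgeR with the 2 groups fitted alone called the first. Comparisons with Sham depend on the scaling, where mitochondrial transcripts took the largest share of the counts.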
